A study of Mus musculus with 12 samples.

Results

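A set of 10 genes that mark brown and white adipocytes was followed through 12 whole mouse hearts: Ucp1, Cidea, Cidec, Adipoq, Retn, Cfd, Lep, Lipe, Scd1 and Fabp4. They were taken by name, as every array probe annotated to one of these 10 genes or to an older symbol of it, out of 21885 genes measured. That gave 15 probes, of which 14 entered. The remaining one, an additional Lipe probe that the array names 4933403G17Rik, reached a signal well above background in 0 of 12 hearts.

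The hearts came from male C57BL/6 mice in 4 groups of 3. Controls were Cre-negative littermates with a floxed glucocorticoid receptor allele (GRflox), at 1 month and at 2 months. The cardioGRKO mice carried the same floxed allele together with αMHC-Cre, in which the alpha myosin heavy chain promoter drives Cre recombinase in cardiomyocytes, again at 1 month and at 2 months. All 12 animals therefore had the floxed allele, and no control carried Cre. Each heart was hybridised to 1 single-colour array, and group and replicate names follow the labels (GRflox_1month replicate 3, for example). Nothing in the labels states how far fat was trimmed from the hearts.

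Adipocytes store triglyceride in lipid droplets and secrete hormones, and fat depots lie on and around the heart and the large vessels. Brown adipocytes in addition burn fatty acids for heat, through the uncoupling protein UCP1 in the inner mitochondrial membrane. In mice, brown fat surrounds the thoracic aorta and fills part of the mediastinum, so a whole heart lifted from the chest can carry some of it. Heart muscle itself takes up and oxidises fatty acids, and it shares several lipid genes with fat.

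A level here is log2 of the processed signal over the 75th percentile of that array, so 0 means a signal equal to that percentile and 1 unit is a doubling. Levels are compared for the same probe between hearts, since the levels of different probes do not give the order of their transcripts. Differences between groups were tested with limma over all genes with Benjamini-Hochberg adjustment, and a gene was called with an adjusted p under 0.05. The labels do not say whether replicates shared a litter, and the p-values measure only the spread between these samples. In a bulk sample, fewer cells of a type and less RNA per cell cannot be told apart.

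All 9 cardiomyocyte markers were measured in these hearts. Myh6, the alpha myosin heavy chain gene, lay between 8.66 and 9.21 over the 12 hearts, with Myl2, the ventricular myosin light chain, between 8.82 and 9.48. Nr3c1, the receptor gene itself, lay between 2.07 and 2.66 in the 6 controls and between 0.93 and 1.39 in the 6 knockouts on its representative probe. It fell by 1.15 at 2 months (SE 0.13, limma adjusted p = 0.0117, n = 3). At 1 month the difference was -1 (SE 0.13, limma adjusted p = 0.0682, n = 3), which did not pass. The labels do not say which exons are floxed, so whether the probe lies in the deleted part is not known here. On a further Nr3c1 probe, cardioGRKO_2month replicate 3 had -2.28, inside the range of the 2-month controls (-2.4 to -2.14). On the remaining Nr3c1 probes it had -3.35 (controls -2.31 to -1.71) and -1.33 (controls -0.75 to -0.58), below all 3 controls of its age. The 75th percentile of the arrays ran from 844.2 to 1460.1 intensity units. Slide 1 held the 1-month controls alone, slides 2 and 3 mixed groups, and slide 4, scanned on a second day, held cardioGRKO_1month replicate 1 and cardioGRKO_2month replicate 3.

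2 hearts stood apart before any comparison was made. GRflox_1month replicate 3 and GRflox_2month replicate 2, both controls, had the lowest level of 7 of the 10 genes: Ucp1, Cidea, Cidec, Adipoq, Retn, Cfd and Scd1. Their median deviation from the mean of the 12 hearts, over the 10 genes, was -2.84 and -2.98, while the other 10 hearts ran from -0.56 to 1.63. The main group comparisons of the 10 genes below are therefore given with these hearts and without them, the latter chosen after their values were seen. The array of GRflox_2month replicate 2 had the lowest 75th percentile of the series (844.2) and the highest share of probes well above background (81.6%). The array of GRflox_1month replicate 3 (943.7 and 69.4%) was close to those of its slide (68.1% and 69.3%). The part of array quality in the low levels was not tested.

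**Figure D1:**
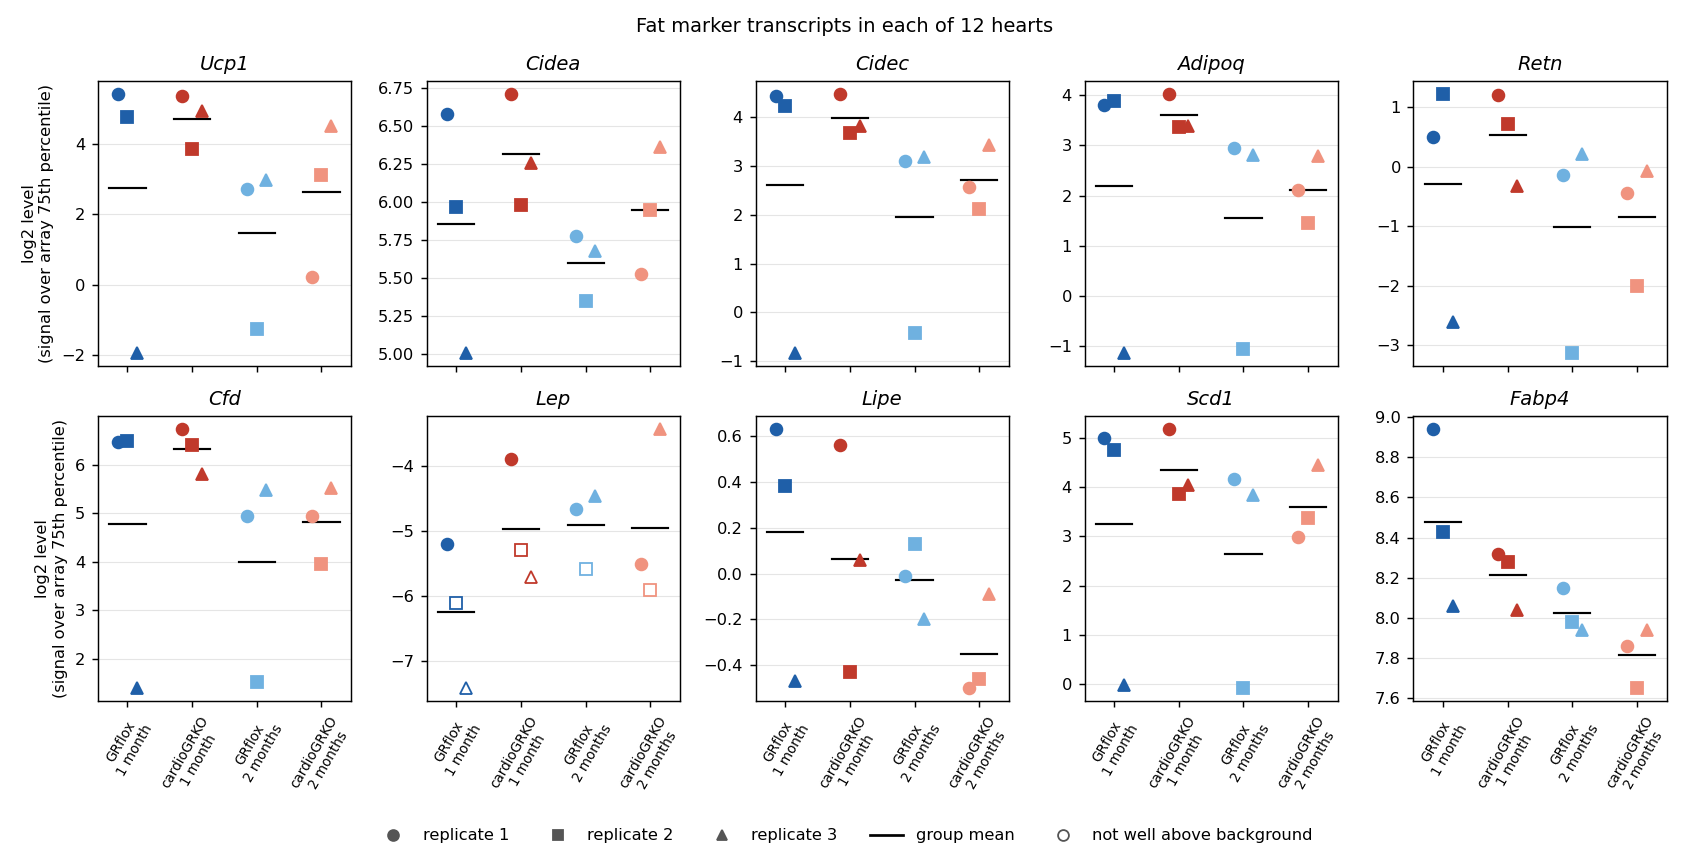
Log2 level (signal over the 75th percentile of the array) of each gene's representative probe, 1 point per heart, in the 4 groups; the shape gives the replicate, black lines are group means, and open points were not well above background. In 7 of the 10 panels GRflox_1month replicate 3 and GRflox_2month replicate 2 are the lowest points, and they pull the control means down.

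UCP1, the protein that makes brown fat thermogenic, was represented by 1 probe, whose 60 bases lie on the plus strand at chr8:81866808-81866867 (mm7, the build of the array annotation). It is shown because this gene varied the most of the 10.
Ucp1: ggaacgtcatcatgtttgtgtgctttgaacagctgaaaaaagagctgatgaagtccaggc
The GRflox_1month hearts had Ucp1 levels of 5.42, 4.78 and -1.94, and the cardioGRKO_1month hearts 5.36, 3.85 and 4.95. The GRflox_2month hearts had Ucp1 levels of 2.73, -1.27 and 2.98, and the cardioGRKO_2month hearts 0.23, 3.12 and 4.52. The highest and the lowest heart of the series were thus both 1-month controls, 164-fold apart. GRflox_1month replicate 3 lay 131-fold below the mean of the other 1-month controls, and GRflox_2month replicate 2 lay 17.5-fold below the other 2-month controls. Another heart, cardioGRKO_2month replicate 1, was also low for this gene, at 0.23. The within-group standard deviation of Ucp1, 2.63 log2 units, was larger than that of 99.9% of the 21885 genes, whose median was 0.25.

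Cidea encodes a lipid droplet protein that is abundant in brown fat and is named with brown markers for that reason. Its levels were 6.58, 5.97 and 5.01 in the GRflox_1month hearts and 6.71, 5.98 and 6.26 in the cardioGRKO_1month hearts. At 2 months they were 5.78, 5.35 and 5.68 in controls and 5.53, 5.95 and 6.36 in knockouts. The order of the hearts followed Ucp1 (Spearman's rho 0.95 over 12 hearts), but the whole series spanned only 3.23-fold. The same 2 control hearts were lowest, the higher of them 0.18 log2 units below the next heart. Within-group spread was 0.5, above 66.6% of genes.

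Cidec encodes a lipid droplet protein of white fat that makes droplets fuse into large ones. Its levels were 4.43, 4.23 and -0.83 in the GRflox_1month hearts and 4.48, 3.69 and 3.82 in the cardioGRKO_1month hearts. They were 3.11, -0.42 and 3.18 in the GRflox_2month hearts and 2.58, 2.12 and 3.43 in the cardioGRKO_2month hearts. The 2 low controls lay 35.8-fold and 11.9-fold below the other controls of their age, and a gap of 2.55 log2 units parted them from the next heart.

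Among the secreted products, Adipoq encodes adiponectin, the hormone made by adipocytes almost alone. Its probe lies on the plus strand at chr16:22816125-22816184 (mm7) and is shown because the other genes are set against it below.
Adipoq: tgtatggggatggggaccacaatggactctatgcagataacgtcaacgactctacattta
Adipoq levels were 3.8, 3.89 and -1.13 in the GRflox_1month hearts and 4.02, 3.37 and 3.39 in the cardioGRKO_1month hearts. They were 2.94, -1.06 and 2.81 in the GRflox_2month hearts and 2.12, 1.46 and 2.78 in the cardioGRKO_2month hearts. In the other 10 hearts Adipoq spanned 5.87-fold, whereas the low controls lay 31.3-fold and 15.2-fold below their group mates. Even in those it was well above background.

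Retn encodes resistin, a small hormone that mouse adipocytes secrete, and had 2 probes. Both lie on the plus strand of chromosome 8 and each spans 822 bases of genome, at chr8:3618519-3619340 and chr8:3618557-3619378 (mm7), so neither matches 1 unbroken stretch of it. They overlap in the 22 bases printed in capitals.
Retn representative probe: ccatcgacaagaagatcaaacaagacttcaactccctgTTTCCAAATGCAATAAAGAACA
Retn second probe: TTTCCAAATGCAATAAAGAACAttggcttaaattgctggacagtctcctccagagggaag
On the representative probe the levels were 0.49, 1.22 and -2.61 in GRflox_1month, 1.21, 0.71 and -0.32 in cardioGRKO_1month, -0.14, -3.13 and 0.22 in GRflox_2month, and -0.45, -2.01 and -0.08 in cardioGRKO_2month. The second probe, which shares bases with it, followed it (Pearson's r 0.975 over 12 hearts) and spanned 38.7-fold where the first spanned 20.5-fold. On the representative probe a knockout heart, cardioGRKO_2month replicate 2 at -2.01, came within 0.6 of the nearer low control. On the second probe it lay farther from them, at -2.25 against -4.4 in GRflox_1month replicate 3 and -3.74 in GRflox_2month replicate 2.

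Cfd encodes complement factor D, also known as adipsin, a serine protease that fat releases into blood. Its levels were 6.46, 6.48 and 1.4 in GRflox_1month, 6.73, 6.41 and 5.8 in cardioGRKO_1month, 4.95, 1.53 and 5.48 in GRflox_2month, and 4.95, 3.96 and 5.52 in cardioGRKO_2month. The low controls lay 33.5-fold and 12.9-fold below the other controls of their age, and all other hearts were at 3.96 or above.

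Lep encodes leptin, the satiety hormone made mainly by white fat, and was close to the detection limit. It was well above background on 6 of 12 arrays, that is 1, 1, 2 and 2 of 3 in GRflox_1month, cardioGRKO_1month, GRflox_2month and cardioGRKO_2month. The levels were -5.2, -6.11 and -7.41 in GRflox_1month, -3.89, -5.3 and -5.71 in cardioGRKO_1month, -4.67, -5.59 and -4.47 in GRflox_2month, and -5.51, -5.9 and -3.44 in cardioGRKO_2month. The probe is printed 10 times on each array. The standard deviation between those spots ran from 0.152 to 0.879 (median 0.41), against 1.03 between hearts of a group. The order of the hearts that were not well above background cannot be read, because their signal lay at the detection limit.

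Of the lipid enzymes, Scd1 encodes stearoyl-CoA desaturase, which makes monounsaturated fatty acids. Its levels were 5, 4.75 and -0.01 in GRflox_1month, 5.17, 3.85 and 4.03 in cardioGRKO_1month, 4.15, -0.08 and 3.83 in GRflox_2month, and 2.98, 3.36 and 4.44 in cardioGRKO_2month. It had the widest gap of the 10 genes between the 2 low controls and the next heart, 2.99 log2 units.

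Lipe encodes hormone-sensitive lipase, which releases fatty acids from stored fat and is also present in muscle. Its levels were 0.63, 0.38 and -0.47 in GRflox_1month, 0.56, -0.43 and 0.06 in cardioGRKO_1month, -0.01, 0.13 and -0.2 in GRflox_2month, and -0.5, -0.46 and -0.09 in cardioGRKO_2month. All hearts lay within 2.19-fold, and GRflox_2month replicate 2, among the lowest for fat hormones, was the highest of its group on this probe. A second probe had an r of 0.887 with it but put GRflox_2month replicate 2 at -0.08, just below replicate 1 at -0.06, while the 4933403G17Rik probe, which did not enter, had an r of -0.025 with the representative probe.

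Fabp4 encodes the fatty acid carrier aP2, which capillary endothelium makes as well as adipocytes. Its levels were 8.94, 8.43 and 8.06 in GRflox_1month, 8.32, 8.28 and 8.04 in cardioGRKO_1month, 8.15, 7.98 and 7.94 in GRflox_2month, and 7.86, 7.65 and 7.94 in cardioGRKO_2month. The series spanned 2.45-fold on this probe, 1.48-fold on the second and 2.72-fold on the third, with r between them of 0.815 to 0.865. The low controls were not the lowest hearts for this gene: GRflox_2month replicate 2 lay 1.05-fold below the mean of its group mates.

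**Figure D2:**
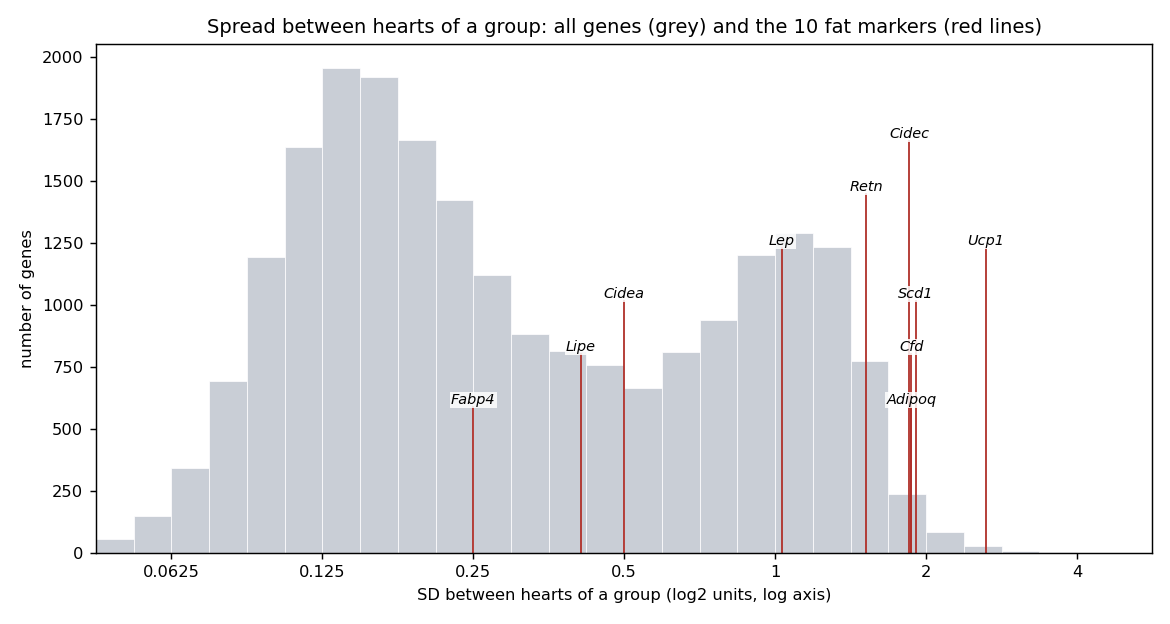
Number of genes (y axis) by standard deviation between hearts of a group in log2 units (x axis, log scale), for all genes in grey, with a red line at each of the 10 fat markers; line heights only separate the names. Ucp1 at 2.63 lies beyond 99.9% of genes, 5 more markers lie between 1.52 and 1.91, and Fabp4 at 0.25 lies at the median.

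The 10 genes thus fell into a widely and a narrowly varying set. In Ucp1, Cidec, Adipoq, Retn, Cfd and Scd1 the within-group spread exceeded that of 96.5% to 99.9% of all genes. In Cidea, Lipe and Fabp4 it exceeded that of 50.9% to 66.6%, and in Lep of 84.2%. Between 76.7% and 86.4% of the variation of the first 6 genes lay within groups, against a median of 64.4% over all genes. The division into these sets was made after the values were seen.

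The 6 widely varying genes varied together from heart to heart. Their 15 pairwise correlations ran from 0.81 to 1 over the 12 hearts. The 2 low controls form a cluster of their own, and over the other 10 hearts the correlations ran from 0.47 to 0.98 (median 0.85). The lowest, 0.47, was that of Ucp1 with Retn, and the highest, 0.98, that of Cidec with Adipoq. These are descriptions, since all genes of a heart share its array and scaling. The closest pair kept a nearly fixed proportion: Cidec minus Adipoq varied by 0.49 log2 units over the 12 hearts, although each gene varied by more than 5. Cfd minus Adipoq varied by 1.02, and Scd1 minus Adipoq by 1.42.

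**Figure D3:**
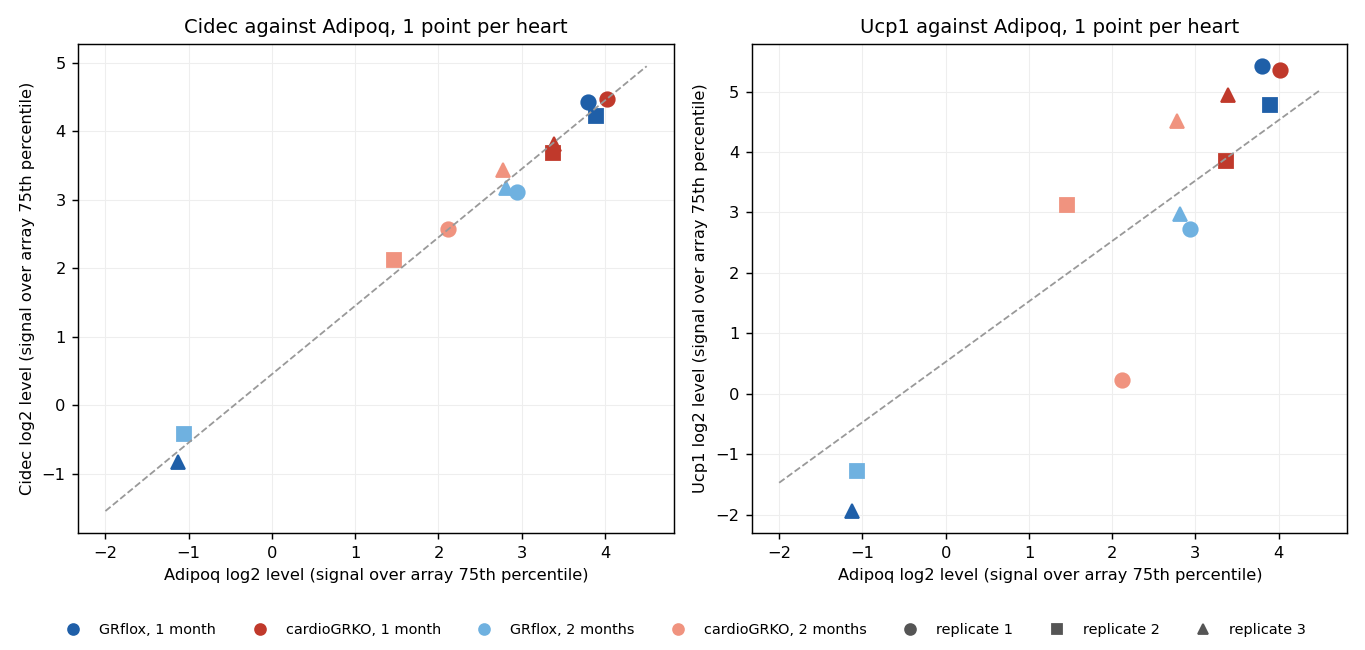
Log2 level of Cidec (left) and of Ucp1 (right) against that of Adipoq, 1 point per heart, with colour for the group and shape for the replicate; the dashed line is the mean difference of the 2 genes. Cidec stays within 0.49 log2 units of a fixed proportion to Adipoq, while Ucp1 ranges over 3.63, with cardioGRKO_2month replicate 1 farthest below the line.

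Ucp1 did not keep a fixed proportion to Adipoq, which brown and white adipocytes both make. Ucp1 minus Adipoq was 1.62, 0.89 and -0.81 in GRflox_1month, 1.35, 0.48 and 1.56 in cardioGRKO_1month, -0.21, -0.22 and 0.17 in GRflox_2month, and -1.89, 1.66 and 1.74 in cardioGRKO_2month. The 2-month knockouts held both the lowest and the highest value of the series. The difference between genotypes was 0.56 at 1 month (0.56 ± 1.25 in controls and 1.13 ± 0.58 in knockouts, SD, n = 3; two-sided exact permutation p = 0.7). It was 0.59 at 2 months (-0.08 ± 0.22 and 0.5 ± 2.07, SD, n = 3; two-sided exact permutation p = 0.8). With 3 hearts against 3 the smallest p is 0.1, and the groups overlapped at both ages. Without the 2 low controls the difference was -0.12 at 1 month (two-sided exact permutation p = 0.8) and 0.52 at 2 months (two-sided exact permutation p = 1), with 2 controls and 3 knockouts at each age and again a smallest p of 0.1.

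The heart at -1.89 was cardioGRKO_2month replicate 1, where Adipoq was 2.12, in the middle of its group, and Ucp1 was 0.23. A few other brown fat genes were looked up after this value was seen. Otop1, a proton channel gene expressed in brown fat, was at -6.18 there and not well above background, against -4.5 and -3.06 in its group mates. Elovl3, a fatty acid elongase gene that cold induces in brown fat, was at -6.51 there and not well above background, against -3.08 and -1.45. Dio2, the deiodinase gene that activates thyroid hormone, was at -1.3, against -0.82 and -0.67. Set against Adipoq it was not low there: Dio2 minus Adipoq was -3.42, between the values of its group mates (-3.46 and -2.29).

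The genes whose levels followed Adipoq most closely over the 12 hearts, out of 16034 with a proper symbol, were Car3 (r 0.996), Pck1 (0.983), Fasn (0.978), Plin1 (0.978) and Ntrk2 (0.976). Without the 2 low controls, which were the hearts farthest from the median, these became 0.983, 0.916, 0.911, 0.906 and 0.888. Spearman's rho ran from 0.923 to 0.972. Car3 encodes a carbonic anhydrase that fat makes in quantity, and its level ran from -0.29 to 4.07. Fasn encodes fatty acid synthase and Plin1 the perilipin that coats the adipocyte's droplet. In all, 45 of the 16034 genes (0.281%) had an r above 0.9 with Adipoq.

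Those closest to Ucp1 were Otop1 (r 0.992), Clstn3 (0.985), Plin1 (0.974), Cdo1 (0.968) and Prkar2b (0.963). Without the 2 low controls the values were 0.982, 0.967, 0.924, 0.901 and 0.922, and rho ran from 0.944 to 0.986. Otop1 was well above background on 9 of 12 arrays, so its lowest values, on which its r rests in part, are not resolved. Its highest level was -2.04. Clstn3, of which a short form is made in brown fat, spanned 4.56 log2 units. Plin1 was the only gene among the closest 5 of both.

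A wider list of adipocyte genes behaved in part like the 6 widely varying markers. Of 28 listed genes 27 were measured (Adrb3 did not enter), with a median r of 0.78 with Adipoq. Of these 12 had an r above 0.8, among them the lipid synthesis genes Fasn, Acaca and Elovl6. Others hardly varied. Lpl, the lipoprotein lipase gene that heart muscle also uses, lay between 6.72 and 7.42, and Dgat2, a triglyceride synthesis gene, between 6.15 and 6.87. Of the other brown fat genes 18 of 19 were measured (Bmp8b did not enter), and 2, Dio2 and Otop1, had an r above 0.8 with Adipoq. Ucp1 had 3 such genes, Dio2, Otop1 and Elovl3. Cox7a1 (8.57 to 9.22) and Fabp3 (8.39 to 9.11), which heart muscle also expresses, hardly varied. Both lists were written with earlier results of these data known.

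Among markers of the other tissues a chest dissection can carry, those of mesothelium, the lining of the pericardium, varied with Adipoq. All 6 were measured, with a median r of 0.77 with Adipoq, beside 0.78 for the adipocyte list. Upk3b, a mesothelial membrane protein gene, lay between 0.24 and 1.38 (r 0.81), and Msln, the mesothelin gene, between 2.15 and 3.19 (r 0.69). The score of that list, the median over its genes of the deviation from the mean of the 12 hearts, was -0.54 and -0.52 in the 2 low controls and between -0.51 and 0.58 elsewhere. Mbp, the myelin basic protein gene, lay between -0.47 and 0.82 (r 0.92).

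Lung markers varied widely, with a median r of 0.22 with Adipoq. Their score was low in one of the low controls, -1.25 in GRflox_1month replicate 3, but 0.8 in the other, GRflox_2month replicate 2, and it was lowest in cardioGRKO_1month replicate 2 (-1.67). Scgb3a2, an airway secretory gene, ran from -2.97 to 5.46, and Lamp3 from 0.15 to 0.92. The cardiomyocyte score was 0.15 and 0.22 in the 2 low controls and between -0.21 and 0.32 elsewhere, with a median r of -0.64 with Adipoq. Endothelial genes (Egfl7 from 3.95 to 4.7, Kdr from 3.4 to 4.1) had a median r of 0.01.

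Blood, lymphoid and macrophage markers had a lower median r with Adipoq than the mesothelium list. Hbb-bt (8.75 to 9.37) and Hba-a1 (8.47 to 9.31), globin genes, were among 4 of 6 red cell genes measured, with a median r of 0.02. Cd79b (-1.06 to 0.89) and Ms4a1 (-2.81 to 0.55), B cell genes, were among 11 of 14 lymphoid genes measured, with a median r of 0.24. The macrophage list had a median r of 0.39 (7 of 7 measured).

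**Figure D4:**
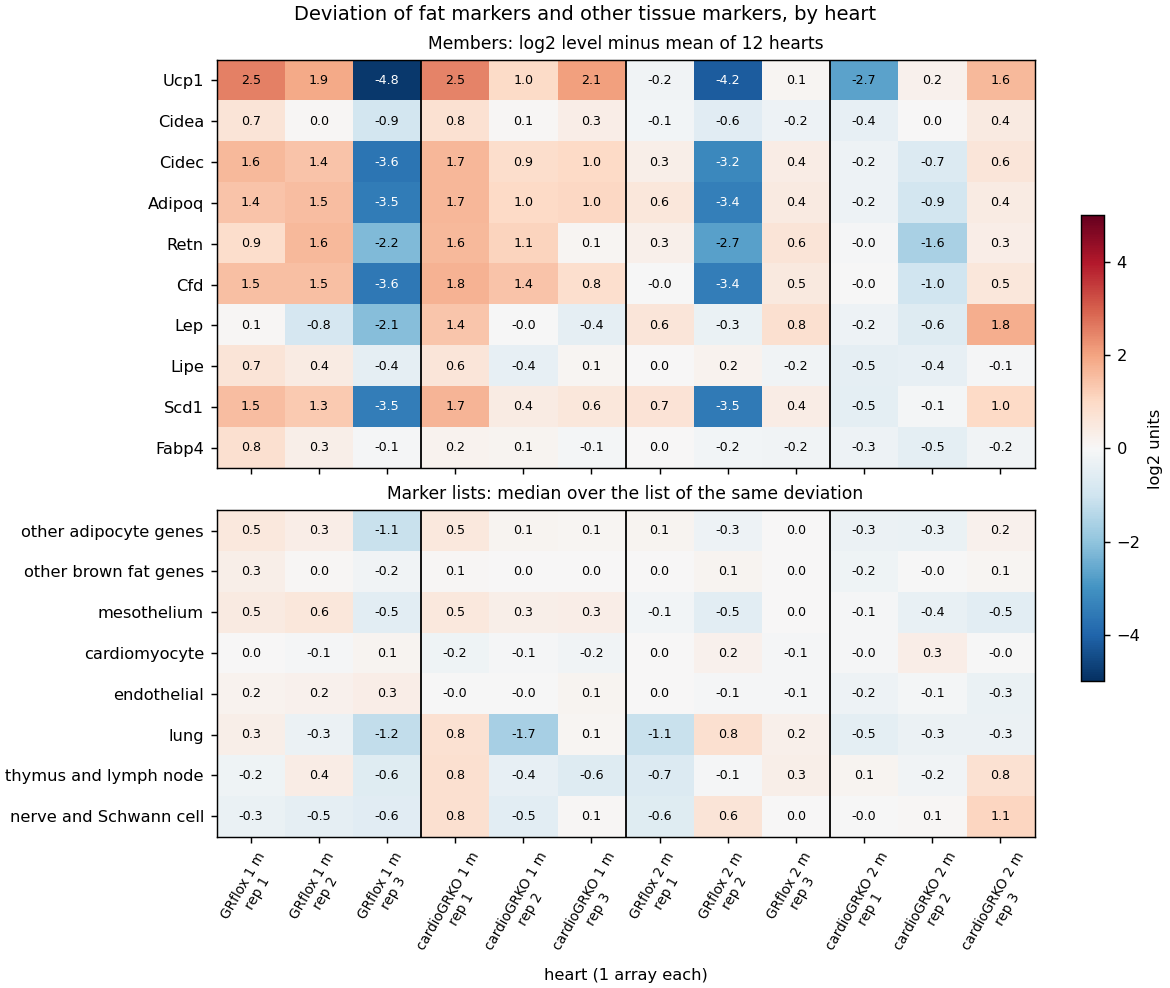
Log2 level minus the mean of the 12 hearts for the 10 fat markers (top) and the median of the same deviation over 8 marker lists (bottom), 1 column per heart, with black lines between groups. The columns of GRflox_1month replicate 3 and GRflox_2month replicate 2 hold the deep blue cells of 6 markers, down to -4.83 for Ucp1, while the cardiomyocyte and endothelial rows stay between -0.34 and 0.33.

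The first comparison asked whether loss of the receptor in cardiomyocytes came with a change of these transcripts at 1 month. It did not pass for any of them: 0 of 10 were called by limma, beside 0.0274% of all genes, and 0 of 10 had an unadjusted p under 0.05, beside 6.12% of all genes. In none of the 10 did the 3 knockouts and 3 controls separate, which 17.6% of genes did. The fitted differences lay above 0 for 8 of 10 (median 1.19, against 0.04 over all genes). That of Ucp1 was 1.97 (SE 2, 95% interval -2.53 to 6.46), of Adipoq 1.4 (SE 1.42) and of Cfd 1.53 (SE 1.42), with limma adjusted p from 0.836 to 0.94 over the 10 genes. These rested on 1 control heart. Without GRflox_1month replicate 3 the median was -0.33, with 8 of 10 below 0. Without both low controls Ucp1 was at -0.38 (SE 1.13), Adipoq at -0.25 (SE 0.37), Cfd at -0.16 (SE 0.46) and Fabp4 at -0.47 (SE 0.18, limma adjusted p = 0.765).

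At 2 months no gene passed either. By limma 0 of 10 genes were called, beside 0.137% of all genes, and 0 of 10 had an unadjusted p under 0.05, beside 7.81% of all genes. None separated the groups, as 12.6% of genes did. The median difference was 0.45 (0.02 over all genes), with 7 of 10 above 0: Ucp1 stood at 1.15 (SE 2, 95% interval -3.35 to 5.64), Scd1 at 0.96 (SE 1.45) and Cfd at 0.82 (SE 1.42), with limma adjusted p from 0.936 to 0.999 over the 10 genes. Without GRflox_2month replicate 2 the median turned to -0.39, with 9 of 10 below 0. Without both low controls Adipoq was at -0.75 (SE 0.37), Retn at -0.89 (SE 0.65) and Ucp1 at -0.23 (SE 1.13), with limma adjusted p from 0.745 upward.

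Slide allowed a further view at 2 months. On slide 3, which held 1 control and 2 knockouts, the knockouts were below the control in 9 of 10 genes, by differences from -1.45 (Retn) to 0.06 (Cidea), with no test since the control was alone. With slide as a fixed block, fitted without the arrays of slide 1, the difference was 0.07 for Ucp1, -0.28 for Adipoq and -0.13 for Cfd. The direction of these 2-month differences therefore depended on which hearts were set against each other. At 1 month slide and group could not be told apart for the controls, which filled slide 1.

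The knockout effect was not shown to differ between ages either. By limma 0 of 10 genes were called for that difference, beside 0% of all genes (0 of 21884), and 0 had an unadjusted p under 0.05, beside 1.34% of all genes. The median was -0.64 (-0.03 over all genes), with standard errors of 2.82 for Ucp1, 2 for Adipoq and 0.28 for Fabp4. Without both low controls the median was 0.02, with 5 of 10 on either side of 0.

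**Figure D5:**
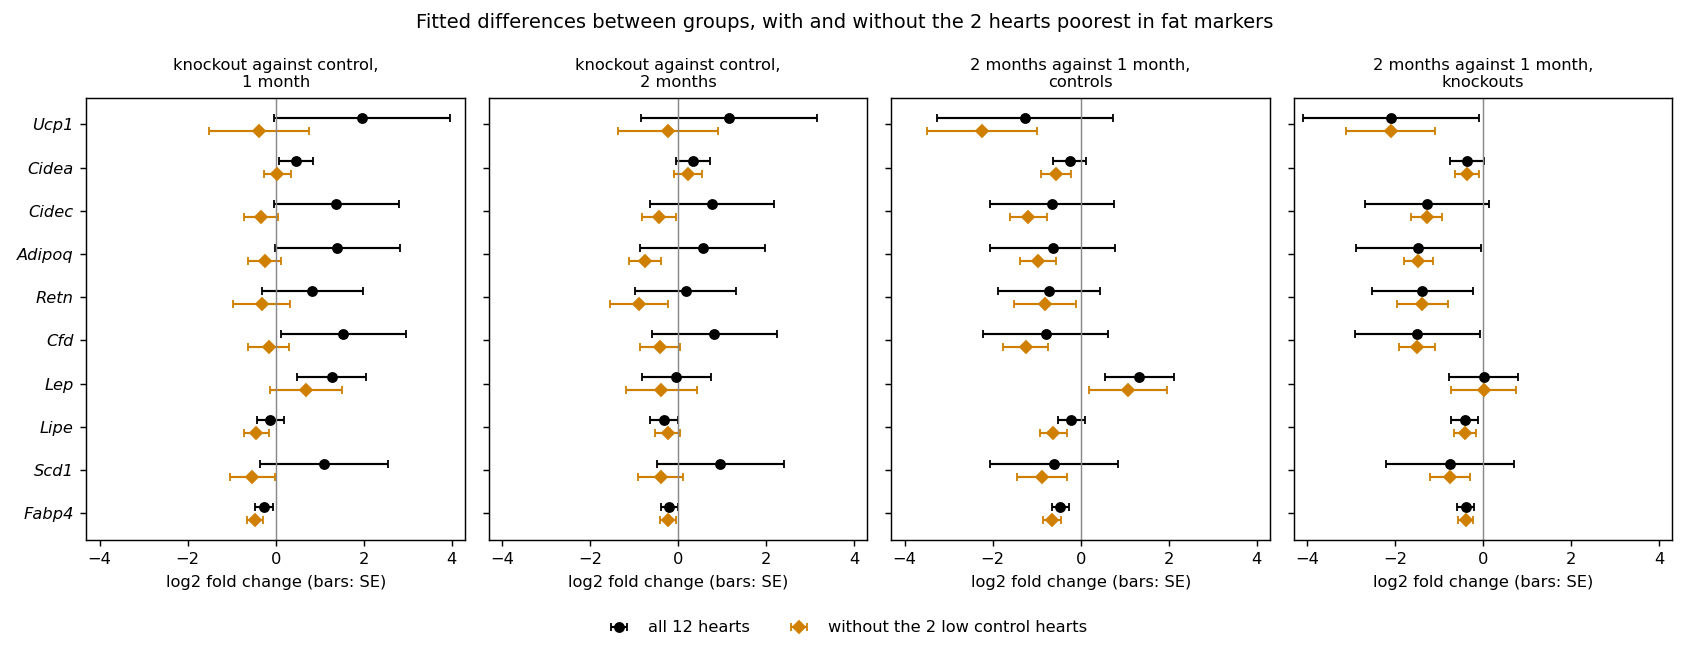
Fitted log2 fold change of each fat marker with its standard error in 4 comparisons, from all 12 hearts (black circles) and without GRflox_1month replicate 3 and GRflox_2month replicate 2 (orange diamonds). In the genotype comparisons the 6 widely varying genes move from above 0 to below 0, and in the knockouts' age comparison, which holds neither heart, the values stay and the bars shorten.

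Age was compared within each genotype. In controls age and slide cannot be told apart, since the 1-month hearts were all on slide 1 and the 2-month hearts on slides 2 and 3. There 0 of 10 genes were called between 1 and 2 months by limma, beside 2.21% of all genes. Fabp4 alone had an unadjusted p under 0.05 (-0.46, SE 0.2, limma adjusted p = 0.312), beside 15.9% of all genes. None separated the ages, as 23% of genes did. The 10 differences had a median of -0.62 (0.12 over all genes) and 9 lay below 0; Lep, at 1.33 (SE 0.78), was the exception. Each age held 1 low heart. The median was -2.06 without GRflox_1month replicate 3, 0.39 without GRflox_2month replicate 2, and -0.85 without both. In the last of these Cidec was at -1.19 (SE 0.42), Cfd at -1.25 (SE 0.51), Adipoq at -0.97 (SE 0.41) and Fabp4 at -0.65 (SE 0.2), the 4 with an unadjusted p under 0.05, and 0 were called (lowest limma adjusted p = 0.198). That fit called 211 of 21884 genes, and the share of all genes with an unadjusted p under 0.05 was not computed.

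The knockouts held neither low heart, and there the mean at 2 months was below that at 1 month in 9 of 10 genes. On the representative probes Cidec, Adipoq, Cfd and Fabp4 separated the 3 hearts of 2 months from the 3 of 1 month, as 24.5% of all genes did in either direction. On the second Fabp4 probe the ages overlapped (lowest 7.74 at 1 month, highest 7.75 at 2 months), and on the third they separated. Lipe overlapped on its representative probe but separated on a further one (lowest -0.26 at 1 month, highest -0.62 at 2 months). Adipoq was 3.59 ± 0.37 at 1 month and 2.12 ± 0.66 at 2 months (SD, n = 3), and Cfd 6.31 ± 0.47 and 4.81 ± 0.79 (SD, n = 3). None of the 10 passed on their representative probes. There 0 were called by limma, beside 0.809% of all genes, and 0 had an unadjusted p under 0.05, beside 14.8%. With each probe fitted, the further Lipe probe (-0.62, SE 0.25) and the third Fabp4 probe (-0.59, SE 0.22) were under that limit unadjusted. Neither was called. The second Fabp4 probe (-0.21, SE 0.12) and the second Retn probe (-1.33, SE 1.38) were not under it. The representative probes gave differences of -1.47 (SE 1.42) for Adipoq, -1.5 (SE 1.42) for Cfd, -1.28 (SE 1.41) for Cidec and -2.1 (SE 2) for Ucp1. The median was -1.02 over the 10 genes and 0.08 over all genes.

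The fit shares 1 spread over the 4 groups, so the low controls widened these errors as well. Without them the differences stayed and the errors shrank, to 0.33 for Adipoq, 0.41 for Cfd, 0.35 for Cidec and 0.16 for Fabp4. A total of 5 genes then had an unadjusted p under 0.05, the 4 above and Retn, and 0 were called (lowest limma adjusted p = 0.105, Adipoq). In that fit 72 of 21885 genes were called, and the share of all genes with an unadjusted p under 0.05 was not computed. The 2 hearts were left out for being low in these genes, so the smaller errors follow in part from that choice. A fit on the knockout arrays alone, which picks no heart, had a median of -1.02 and a median SE of 0.44. There 4 of 10 genes had an unadjusted p under 0.05, and 0 of 21885 genes were called. For that fit too the share of all genes under 0.05 was not computed. On slide 4, the knockout of 2 months was below that of 1 month in 9 of 10 genes, by -1.23 for Adipoq and -1.21 for Cfd, and Lep was at 0.45. Marker lists of other cells also lay on one side in this comparison, with 0 genes called, beside 0.809% of all genes. Of mesothelium 6 of 6 genes were below 0 (median -0.74, 3 at an unadjusted p under 0.05), as were 8 of 8 endothelial genes (median -0.23) and 7 of 7 macrophage genes (median -0.19). All 9 cardiomyocyte genes were above 0 (median 0.25). Their part in the result was not tested.

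The 2 hearts of slide 4 shared a further trait. On the representative probes of 10 of 10 genes, cardioGRKO_1month replicate 1 and cardioGRKO_2month replicate 3 each had the highest level of their group, and the first had the highest median deviation of the series (1.63). On a further Lipe probe (-0.62 against -0.68) and a further Fabp4 probe (7.75 against 7.71) cardioGRKO_2month replicate 1 lay above replicate 3. Their arrays, scanned on the second day, had 78.9% and 79.1% of probes well above background, against 66.5% to 73.5% in the remaining arrays other than GRflox_2month replicate 2. Their nerve and Schwann cell scores (0.81 and 1.09) and their lymphoid scores (0.82 and 0.76) were also the highest of the 12. Without both arrays the median difference between genotypes was 0.71 at 1 month and 0.17 at 2 months, and 0 of the 10 genes were called. With scan day as a block it was 0.65 and 0.21, and with slide as a random block 1.23 and 0.35, again with 0 called.

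In the wider lists few genes passed. Over all genes 0.0274% passed for the knockout at 1 month and 0.137% at 2 months. For age 2.21% of all genes passed in controls and 0.809% in knockouts. Among the 27 other adipocyte genes, 0 rose and 0 fell in either genotype comparison, and 1, Sncg, the gamma-synuclein gene, rose with age in controls (0.74, SE 0.14, limma adjusted p = 0.0315). Its r with Adipoq was -0.13. In the knockouts 0 of 27 passed with age, with a median of -0.47. Of the 18 other brown fat genes 0 passed in any comparison (lowest limma adjusted p = 0.0793). Of the lists for other tissues, 1 skeletal muscle gene of 11 rose in the 2-month knockouts (1.09, SE 0.14, limma adjusted p = 0.0335). It was Mybpc2, a fast myosin-binding protein gene. Signal differed widely within that list. Myh4, a fast myosin gene, lay between 6.75 and 7.84, and Atp2a1 between 4.01 and 4.75. Other myosin genes, Myh1 and Myh2, lay between -5.91 and -3.55 and between -4.63 and -2.57. Myh1 was well above background on 7 of 12 arrays. Of the macrophage list 1 gene of 7, Cd68, fell with age in controls by 0.61 (SE 0.11, limma adjusted p = 0.0224). None of the 3 kept its call without the 2 low controls: Sncg was at 0.68 (limma adjusted p = 0.142), Mybpc2 at 0.98 (limma adjusted p = 0.169) and Cd68 at -0.66 (limma adjusted p = 0.0526). Calls over all genes also fell in that fit, from 483 to 211 for age in controls and from 30 to 10 for the knockout at 2 months.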

How the data were processed

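Total RNA of 12 whole hearts was measured on single-colour (Cy3) Agilent arrays, 3 hearts per group. Per the submitters' processing notes, scans were read with Agilent Feature Extraction 9.5. The authors deposited scanner files with the processed signal, a linear intensity; their value table holds the same intensity (largest relative difference 0). Per the file headers, probe positions are on mm7, and printed probe sequences come from the same files. No exon annotation of that build was used.

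Of 45018 features, 1639 controls and the spots marked non-uniform (3 to 310 per array) were left out, and spots of a probe were averaged into 41174 probes. A probe entered if well above background on at least 3 of 12 arrays. Genes took current names through GRCm38.p6 tables, and the brightest entering probe on average stood for each gene. The log2 signal minus the array's 75th percentile went into a limma fit (version 3.58.1, R 4.3.3) with 1 mean per group over all 12 arrays. Simulated data with known changes were used to test the code. A fold is 2 to the power of the log2 difference.

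The gene set, the marker lists and the tests were chosen with earlier results of these data known. Named genes were the 10 markers, the 5 genes most like Adipoq and Ucp1, and, per list, genes that passed or otherwise the 2 with the highest mean signal, a rule for naming only; Otop1, Elovl3 and Dio2 in single hearts, and further list genes, were named after their values were seen. A gene that the rule names is not reported here. Alternatives covered scaling, background, filters, probes, slide, scan day, replicate number and leaving out each array. Leaving out both low hearts and slide as a fixed block were added after the data were seen. Replicate numbers did not pair the hearts by the labels. The number of arrays limits precision. Python 3.11.15 with matplotlib 3.10.9 made the figures.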

Additional observations from a re-analysis of the deposited data

How the results depend on the processing

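Over 26 alternatives, 0 of the 10 fat markers were called by limma in any of the 5 comparisons (lowest adjusted p = 0.0948, Fabp4 between ages in controls). Of 1255 refitted differences 96 changed sign, none of them called. The deposited value table and the replicate block refit the same differences, so these alternatives could not change a sign. The lowest and highest median difference over the alternatives was -0.33 and 1.88 for the knockout at 1 month, -0.39 and 0.99 at 2 months, -2.06 and 0.39 for age in controls, and -1.78 and -0.67 for age in knockouts. Each group held the same replicate numbers, so the replicate block could not move the medians of these 4 comparisons. They stayed at 1.19, 0.45, -0.62 and -1.02, and 0 markers were called with the block. Over all genes the replicate block took the calls from 6 to 3, 30 to 6, 483 to 199 and 177 to 0. Same-numbered hearts of the 2 genotypes had correlations of deviations from -0.06 to 0.49, and 7 of 12 hearts correlated best with their own number. These values do not settle whether the numbers pair the hearts. The numbers were not taken as pairs because the labels do not pair them. With slide as a random block the calls over all genes were 3, 28, 245 and 99. With slide as a fixed block, which could be fitted only without the 1-month controls, the median was -0.17 for the knockout at 2 months. Over alternatives the count over all genes ran from 0 to 12, 0 to 48, 8 to 725 and 0 to 403. Ucp1 minus Adipoq between genotypes ran from -0.12 to 1.09 at 1 month and from -0.03 to 1.78 at 2 months. Lep was not well above background on 6 of 12 arrays, and with normexp background and quantile scaling together its difference at 1 month was 0.17 against 1.27.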

Other observations

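Beyond the fat markers themselves, the Adipoq level of each heart was entered as a covariate in the fit of the other 21875 genes. For the knockout at 1 month 5 genes were called instead of 6, with 4 in both, and at 2 months 21 instead of 30, with 18 in both; Mybpc2 was among those no longer called. For age the count in controls was 415 instead of 483, with 371 in both, and in knockouts 48 instead of 177, with 45 in both. In the knockouts Adipoq separated the ages, so the covariate and age overlap there, and the fit cannot tell them apart.

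Elovl3 stood outside the common pattern in one of the low controls. In GRflox_2month replicate 2 it was at -3.03, the highest of its group (-3.56 and -4.46 in the others), although Ucp1 was at -1.27 and Otop1, at -7.21, was not well above background. In GRflox_1month replicate 3 Elovl3 was at -7.66 and not well above background.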
